A study of Mus musculus with 75 samples.

Results

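The response of colonic enteric glia to lipopolysaccharide (LPS, an endotoxin of Gram-negative bacteria) was measured 24 h after injection in mice labelled wild type for Gpr37. The comparison holds 9 of the 75 RNA-seq libraries of the series: 5 from LPS-treated mice and 4 from mice given phosphate-buffered saline (PBS), taken by their treatment, genotype and region labels, and it was made across all 14903 genes that passed a filter on low counts. Every mouse was labelled Gpr37WT, although the colon libraries of LPS mice 3, 5 and 8 held at most 2 Gpr37 counts each, and was labelled as carrying a glial eGFP reporter transgene, which marks glia by green fluorescent protein. Each received a single intraperitoneal dose of 2 mg/kg LPS (E. coli O111:B4) or PBS alone, and enteric glial cells (EGC) came from the colonic myenteric plexus, the nerve layer between the muscle coats. The labels do not say how the glia were separated from other cells, and the ages of these mice and any batch are not given in the sources used here. The LPS libraries came from mice 13, 16, 3, 5 and 8 (replicates 1 to 5) and the PBS libraries from mice 14, 19, 22 and 24 (replicates 1 to 4), and values below are given in this order. No mouse was in both groups, the LPS group held 3 males and 2 females, and the PBS group held 2 of each.

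Enteric glia surround the neurons of the gut wall and are marked by the transcription factor Sox10 and the calcium-binding protein S100b. LPS is sensed by Toll-like receptor 4, whose adaptors switch on NF-kB and type I interferon genes. Cytokines made in that first wave act through STAT proteins and induce chemokines, acute phase proteins and antigen presentation genes, and injury-exposed astrocytes of the brain show a related reactive programme.

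Gpr37, the receptor gene deleted in the knockout arm of the study, was read first as a check of the labels. It had 23, 20, 2, 0 and 0 counts in the LPS libraries and 110, 39, 97 and 33 counts in the PBS libraries, or 8.37, 2.40, 0.472, 0 and 0 against 13.3, 4.42, 3.41 and 3.18 CPM (counts scaled to a common library size after TMM normalisation). The libraries labelled wild type of mice 3, 5 and 8 therefore sat in the range of the knockout colon libraries, of which 8 of 9 held 3 or fewer counts. A count of 0 allowed up to 0.682 CPM in mouse 5 and 0.633 CPM in mouse 8, from counting error alone. Mouse 5 combined 0 Gpr37 counts with 633 CPM of the glial gene Sox10. The colon library of mouse 8 had the lowest Sox10 level (14.4 CPM). Its small intestine library held 100 Gpr37 counts (9.12 CPM), within the 5.36 to 17.4 CPM of the wild-type-labelled small intestine libraries other than that of mouse 3, which held none. A small intestine library of mouse 5 was not analysed here. Gpr37 itself did not pass the test between treatments (log2 fold change -1.46 ± 1.23 SE, adjusted p = 0.49). Results are given for all 5 libraries labelled wild type; calls that were lost or gained and the larger moves in list counts are also given for the mice numbered 11 and above, which leaves LPS mice 13 and 16 and all 4 PBS mice; LPS mice 3, 5 and 8 have numbers of 10 or below and no PBS mouse does.

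Total counts ran from 2882539 to 9162042 in the LPS libraries and from 7371018 to 28234203 in the PBS libraries, and 12592 to 14550 genes were detected. Sox10 was at 186, 173, 57.8, 633 and 14.4 CPM after LPS and 167, 129, 160 and 246 CPM after PBS. S100b was at 150, 284, 21, 143 and 123 CPM against 332, 308, 415 and 549 CPM. Both glial markers were thus present in all 9 libraries, and both were lowest in LPS mice 3 and 8. The same 2 libraries carried transcripts of other cells: Epcam, an epithelial adhesion gene, was at 702 and 846 CPM there, at 0.728, 0.839 and 0 CPM in LPS mice 13, 16 and 5, and at 7.27, 6.92, 0 and 75.2 CPM in the PBS libraries. The 12 epithelial markers summed to 9930 and 18000 CPM in mice 3 and 8, against 13.3 to 36.2 CPM in the other LPS libraries and 10.8 to 791 CPM after PBS, and 0 of 12 were called. The lymphocyte list summed to 2740 and 1440 CPM in mice 3 and 8, 7.07 to 25.9 CPM in the other LPS libraries and 0.281 to 21.1 CPM after PBS. The macrophage and monocyte list summed to 4240 and 4170 CPM in those 2 libraries, 493 to 1440 CPM in the other LPS libraries and 890 to 1620 CPM after PBS, with 0 of 20 called. Mesothelial, neuron and erythrocyte sums were also highest in mice 3 and 8. Mesothelial markers summed to 1760 and 2040 CPM there and to 40.2 to 119 CPM after PBS. Neuron markers summed to 4790 and 11700 CPM against 924 to 4300 CPM after PBS, and erythrocyte markers to 2770 and 2290 CPM against 57.3 to 442 CPM. PBS mouse 19 stood apart by pancreatic enzyme transcripts, and PBS mouse 14 by the levels of single inflammatory genes, given with those genes. In bulk samples, fewer cells of a type and less RNA per cell cannot be told apart.

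**Figure D1:**
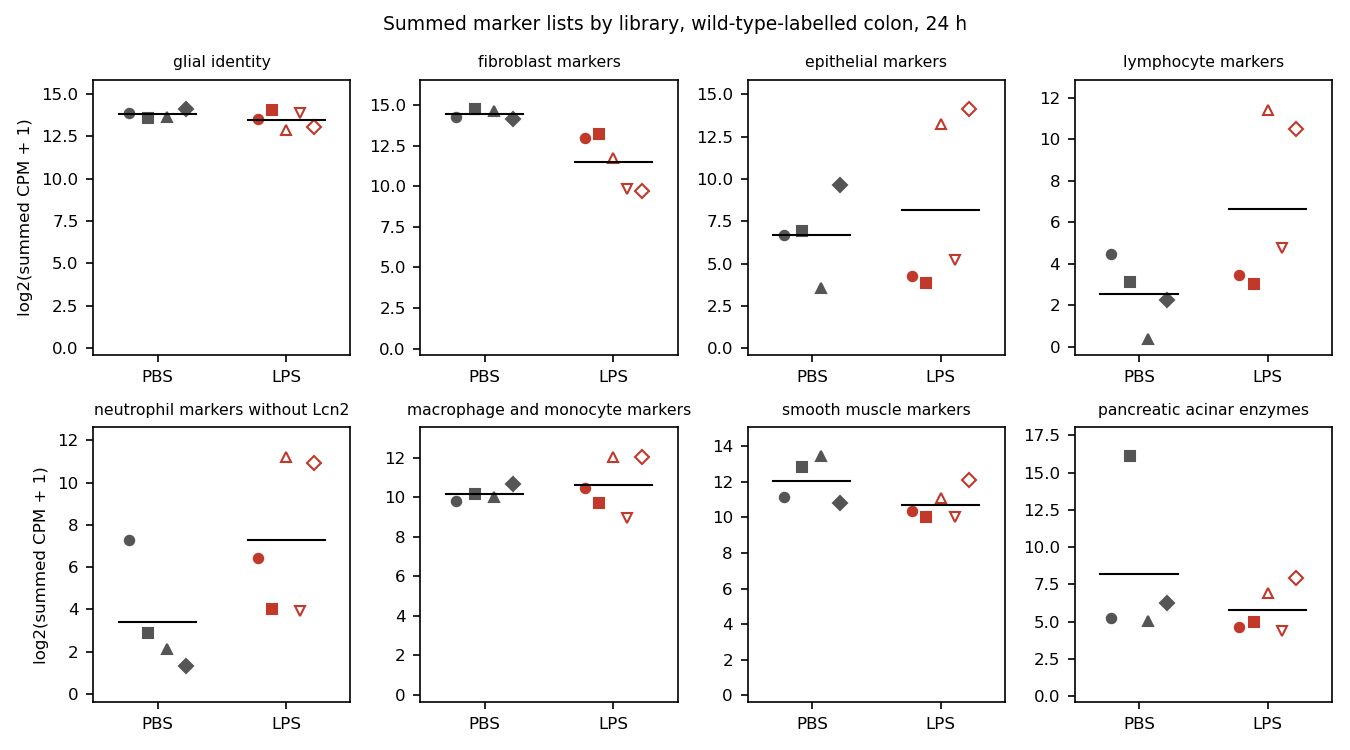
Summed level of marker lists in each library on a log2(summed CPM + 1) axis, with PBS libraries in grey, LPS libraries in red, open symbols for LPS mice 3 (upward triangle), 5 (downward triangle) and 8 (diamond), and a bar at the group mean. Epithelial and lymphocyte markers were high in mice 3 and 8, pancreatic enzymes (a list made after the values were seen) in PBS mouse 19, and fibroblast markers were lower in all 5 LPS libraries than in the 4 PBS libraries.

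After LPS, genes among the chemokine, interferon, antigen presentation, acute phase and metallothionein lists rose and genes among the collagen and matrix list fell. With edgeR's quasi-likelihood test and Benjamini-Hochberg adjustment, 1186 of 14903 genes (7.96%) passed an adjusted p of 0.05: 590 (3.96%) were higher and 596 (4.00%) lower. The groups did not overlap for 649 genes that were higher (4.35%) and 1360 that were lower (9.13%), and among the called genes for 373 of the 590 and 520 of the 596. The median log2 fold change over all genes was -0.03. Leaving out PBS mouse 14, 19, 22 or 24 left 727, 551, 615 and 722 called genes. Without LPS mice 3 and 8 there were 679 called genes, 487 of them among the 1186, and among the mice numbered 11 and above 1468, of which 715 were among the 1186.

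The 12 genes with the largest rises included the chemokines Ccl5, Ccl2, Cxcl5 and Ccl17. Ccl5, a chemokine that attracts T cells and monocytes (chr11:83525778-83530518, GRCm38), was at 2570, 1570, 2610, 1240 and 922 CPM after LPS and at 33.8, 5.22, 3.76 and 6.75 CPM after PBS. Every LPS library exceeded every PBS library, by a log2 fold change of 7.17 ± 1.39 (SE, adjusted p = 0.0016). Ccl2, the main monocyte attractant (chr11:82035577-82037452), was at 1610, 1970, 911, 4130 and 594 CPM against 105, 24.8, 13.9 and 26.7 CPM. Its log2 fold change was 5.44 ± 0.90, and PBS mouse 14 was the highest control. Acod1, which makes itaconate, was at 129, 173, 70.3, 381 and 33.4 CPM after LPS, and only PBS mouse 14 had any counts (3.03 CPM; log2 fold change 7.83 ± 1.51, adjusted p = 0.0018). Of the other 9 genes with the largest rises, Cxcl5 (6.83 ± 1.72), Ubd (5.91 ± 1.22), Serpina3f (5.52 ± 1.36), Serpina3i (5.35 ± 1.64), Ptx3 (5.10 ± 1.52) and Jaml (5.05 ± 1.07) were counted in all 5 LPS libraries. Ccr7, the receptor by which dendritic cells reach lymph nodes, had 1 count over the PBS libraries and a ratio of 6660 (95% counting interval 1200 to 263000). It was at 535 CPM in LPS mouse 3 and between 1.36 and 56.8 CPM in the other LPS libraries, and lost its call without mice 3 and 8 (adjusted p = 0.11). Ccl17, a dendritic cell chemokine, had 3 counts over the PBS libraries and a ratio of 1060 (361 to 5130). Sdcbp2 was highest in mice 3 and 8, the libraries with high epithelial markers (62.5 and 235 CPM, against 4.32 to 11.6 CPM in the other LPS libraries) and lost its call without them (adjusted p = 0.38) and among mice 11 and above (0.31). The other 10 of the 12 genes kept their call without mice 3 and 8. Ccr7 also lost its call without any 1 PBS mouse or LPS mouse 3, Sdcbp2 without PBS mouse 19, 22 or 24 or LPS mouse 3 or 8, Ptx3 without PBS mouse 19, 22 or 24, Serpina3i without those 3 or LPS mouse 13 or 16, and Cxcl5 without PBS mouse 22 (adjusted p = 0.0503). Without PBS mouse 14 the log2 fold changes of Cxcl5 and Ptx3 were 11.10 and 7.85, and Acod1 and Serpina3i had no counts left in the PBS group.

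Of the 11 CXC and CX3C chemokines tested, 4 rose and none fell. Of the 15 CC chemokines tested from their list, which does not hold Ccl17, 3 rose (Ccl2, Ccl5 and Ccl22) and none fell. Without PBS mouse 19 or 24, 2 of the 11 CXC genes were called, Cxcl10 and Cxcl2 having lost their calls (adjusted p from 0.0504 to 0.062), 1 of 10 was with only the 2 groups fitted, and 6 of 11 were among mice 11 and above. Cxcl10, a T cell attractant induced by interferon, was at 597, 781, 787, 672 and 1360 CPM against 48.2, 14.5, 40.2 and 28.1 CPM (log2 fold change 4.68 ± 1.22, adjusted p = 0.015). Cxcl1, a neutrophil attractant, was at 900, 944, 95.0, 1130 and 104 CPM against 63.1, 9.08, 8.53 and 2.03 CPM, with a log2 fold change of 4.94 ± 1.17. LPS mice 3 and 8 were the lowest of the LPS group for Cxcl1 and still lay above the PBS libraries. Cxcl5 reached 2090 CPM in LPS mouse 5, against 144 to 666 CPM in the other LPS libraries and at most 24.4 CPM after PBS. Ccl22 had no counts in the PBS libraries and was at least 113-fold higher after LPS against a floor of 3 counts per library; it had none in LPS mouse 5 and lost its call without mice 3 and 8 (adjusted p = 0.11), any 1 PBS mouse or LPS mouse 3. Neutrophil markers other than Lcn2 summed to 85.5, 15.0, 2360, 14.3 and 1980 CPM after LPS and 156, 6.35, 3.41 and 1.54 CPM after PBS, so they were high in LPS mice 3 and 8 and in no other LPS library exceeded PBS mouse 14. Ly6g, a neutrophil surface gene, was counted only in LPS mice 3 and 8 (151 and 200 CPM) and, at 1 count, in a PBS library. It was called with all libraries (adjusted p = 0.036) and lost the call without any 1 PBS mouse or either of LPS mice 3 and 8. Its log2 fold change was -1.03 without both and -1.21 among mice 11 and above, values that rest on that 1 PBS count.

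**Figure D2:**
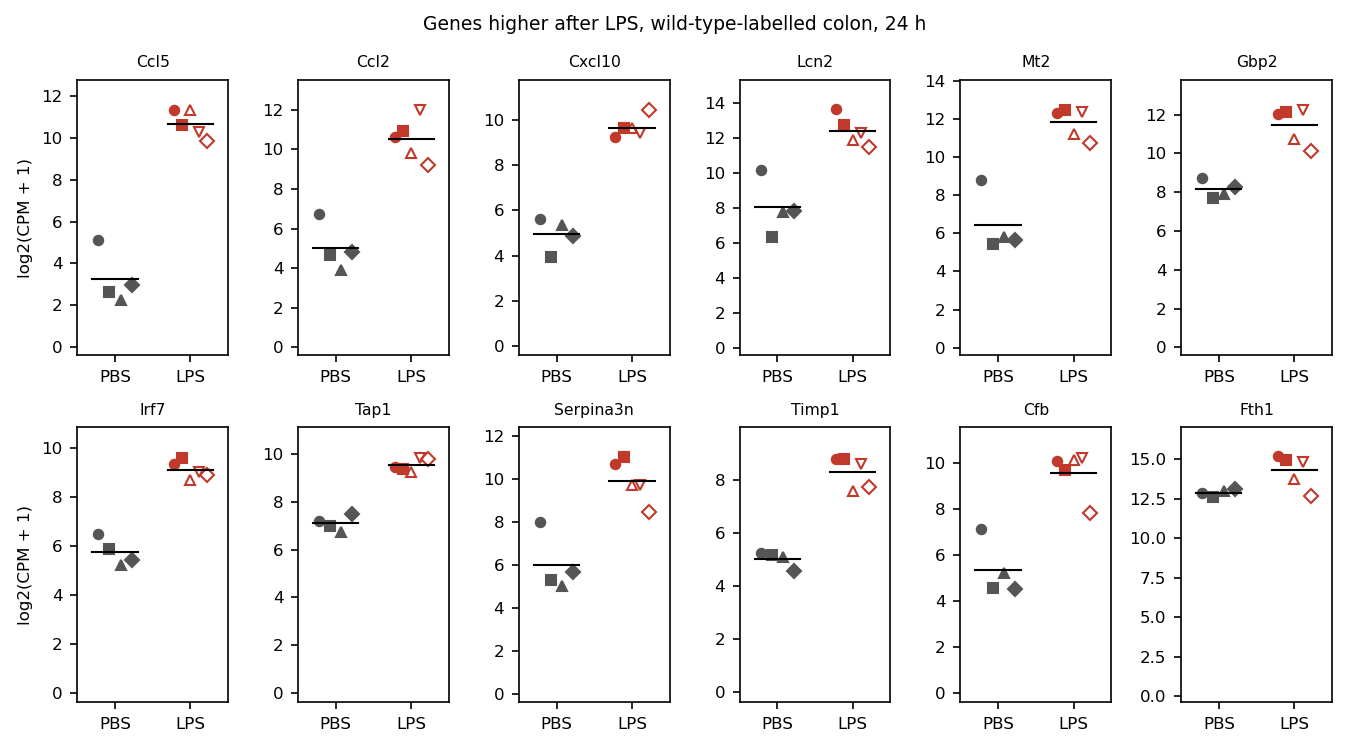
Level of 12 genes that rose after LPS, as log2(CPM + 1) in each library (grey PBS, red LPS, open symbols for LPS mice 3, 5 and 8, bar at the group mean). For 11 of the 12 genes all LPS libraries lay above all PBS libraries; Fth1 overlapped through mouse 8 at 6550 CPM.

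Many interferon-stimulated genes rose. Of 24 type I interferon-stimulated genes tested, 13 were higher and 0 lower, with a median log2 fold change of 1.6 against -0.03 over all genes. Irf7, the transcription factor that amplifies type I interferon (chr7:141263183-141266499), was at 654, 773, 417, 526 and 477 CPM after LPS and 88.3, 57.1, 36.1 and 42.5 CPM after PBS. The groups were far apart and the log2 fold change was 3.35 ± 0.39 (adjusted p = 2.7e-06). Rsad2, which encodes the antiviral enzyme viperin, was at 351, 636, 185, 396 and 359 CPM against 58.3, 25.2, 21.6 and 41.4 CPM, a log2 fold change of 3.40 ± 0.66. Zbp1, a sensor of nucleic acids, was at 147, 125, 129, 193 and 147 CPM against 29.1, 27.6, 36.8 and 31.0 CPM, with little spread within either group. Isg15, a ubiquitin-like modifier, rose by a log2 fold change of 1.83 ± 0.37. Stat2 and Irf9 did not pass the test. Of the 20 genes of interferon-gamma-induced GTPases and regulators, 7 were higher and 0 lower: Gbp2 to Gbp6, Irgm1 and Iigp1. Gbp2, a guanylate-binding protein of antimicrobial defence, was at 4150, 4430, 1740, 4900 and 1110 CPM against 424, 204, 243 and 304 CPM (log2 fold change 3.48 ± 0.55, adjusted p = 0.00019). Among mice 11 and above, 13 of 24 type I genes and 6 of 20 of the GTPase list were called higher, and these need not be the same genes.

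The promoters of Rsad2, of the type I list, and of Cxcl10, which is in the chemokine list and not among the interferon genes counted here, are shown because both genes rose and both windows hold the element searched. The interferon-stimulated response element was searched as GAAA, 2 free bases and GAAA on both strands in the 300-base windows that RefSeq (GRCm38.p6) gives for promoters, from 250 bases before to 50 after 1 start per window. It was found in 3.44% of 32851 windows, in the windows of 11 of 19 tested type I genes that had one and in 10 of 12 of the GTPase list; of the called members, 6 of 10 and 4 of 4 held it. A match describes the letters and is not evidence of binding. Capitals mark the match in Cxcl10 (chr5:92348840-92349139, minus strand) and Rsad2 (chr12:26456403-26456702, minus strand).
Cxcl10: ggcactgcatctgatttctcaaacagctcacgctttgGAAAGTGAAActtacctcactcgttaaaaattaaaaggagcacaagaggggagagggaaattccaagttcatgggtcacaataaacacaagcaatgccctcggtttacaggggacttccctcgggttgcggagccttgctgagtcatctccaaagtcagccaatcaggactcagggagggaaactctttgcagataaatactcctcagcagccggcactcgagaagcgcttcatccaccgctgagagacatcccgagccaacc
Rsad2: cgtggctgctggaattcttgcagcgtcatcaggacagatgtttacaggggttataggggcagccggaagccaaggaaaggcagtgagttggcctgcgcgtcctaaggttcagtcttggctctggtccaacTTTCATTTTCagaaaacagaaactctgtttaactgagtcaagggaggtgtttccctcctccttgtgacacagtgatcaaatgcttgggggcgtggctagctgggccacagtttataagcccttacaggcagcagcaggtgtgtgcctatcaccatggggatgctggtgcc

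Most of the tested genes of MHC class I antigen presentation rose, and none of class II passed. Of 18 genes of MHC class I and the immunoproteasome, 11 were higher and 0 lower (median log2 fold change 1.27); 7 were higher without PBS mouse 19 and 14 among mice 11 and above. Tap1, a subunit of the peptide transporter, was at 703, 667, 604, 914 and 873 CPM after LPS and 146, 126, 107 and 180 CPM after PBS, a log2 fold change of 2.43 ± 0.43 (adjusted p = 0.00061). H2-T23, a non-classical class I gene, was at 607, 633, 299, 779 and 147 CPM against 123, 82.4, 91.3 and 107 CPM, so LPS mouse 8 lay just above the highest control. Psmb8, an immunoproteasome subunit, rose by a log2 fold change of 1.52 ± 0.38, with an adjusted p of 0.011 that became 0.067 without mice 3 and 8. The classical genes H2-K1 (log2 fold change 1.00 ± 0.33, adjusted p = 0.054) and B2m (0.76 ± 0.37, adjusted p = 0.20) did not pass with all 5 LPS libraries; among mice 11 and above both did (adjusted p = 0.017 and 0.048), and H2-K1 did without LPS mouse 8 (0.025). Of 7 MHC class II genes, 0 passed (median log2 fold change 1.06), with H2-Aa between 374 and 2320 CPM after LPS and between 253 and 605 CPM after PBS. The Q-region genes H2-Q4, H2-Q6 and H2-Q7 are close relatives whose reads the counting could have split.

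Some acute phase, complement and iron genes rose, and most members of these lists did not pass. Of 22 acute phase genes, 7 were higher and 0 lower, with a median log2 fold change of 3.74. Lcn2, which binds bacterial siderophores, was at 12800, 6810, 3820, 4970 and 2880 CPM after LPS and 1170, 81.5, 218 and 230 CPM after PBS (log2 fold change 3.88 ± 1.05, adjusted p = 0.02). It lost its call without PBS mouse 19, 22 or 24 (adjusted p from 0.065 to 0.075). Serpina3n, a serine protease inhibitor of reactive glia, was at 1660, 2040, 838, 833 and 353 CPM against 256, 38.3, 30.8 and 50.3 CPM, a log2 fold change of 3.61 ± 0.60. Saa3, a serum amyloid gene, was at 14700, 12500, 10600, 925 and 3270 CPM against 1440, 10.3, 3.65 and 4.53 CPM and did not pass (adjusted p = 0.061), with PBS mouse 14 above LPS mouse 5. Without PBS mouse 14 it passed (adjusted p = 0.0011). Of the 22 genes of the list, 11 were higher without PBS mouse 14 and 4 without mouse 19, 22 or 24, and 4 of 15 were with only the 2 groups fitted. Among mice 11 and above 11 of 23 were higher. Orm2 was at 7.64, 17.4 and 23.9 CPM in LPS mice 13, 16 and 5 and at 0 in the other libraries, at least 35.6-fold higher over the group. Complement gave 2 higher and 1 lower of 15: Cfb (log2 fold change 4.00 ± 0.91) and C2 (2.83 ± 0.74), neighbouring genes of the alternative and classical pathways, and Cd55, an inhibitor of complement, which fell by 2.79 on the log2 scale and lost its call without any 1 library other than LPS mouse 8 (adjusted p from 0.058 to 0.096). C2 lost its call without PBS mouse 19 or 24, which left 1 complement gene higher, while among mice 11 and above 4 of the 15 were higher and 1 lower. Cfb was at 1100, 823, 1120, 1210 and 225 CPM against 141, 22.6, 37 and 22.2 CPM. Of 15 iron genes 4 were higher, and 1 was with only the 2 groups fitted; Fth1, the ferritin heavy chain that stores iron, was at 37900, 31700, 14000, 29700 and 6550 CPM against 7480, 6240, 8220 and 8710 CPM, and LPS mouse 8 overlapped the controls. Slc39a14, an importer of iron and zinc, rose by a log2 fold change of 3.39 ± 0.72.

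Genes of NF-kB feedback, adhesion and cytokine signalling are given next. Over all genes tested, 3.96% were higher. Of 21 genes of LPS sensing and NF-kB feedback, 11 were higher and 0 lower (median log2 fold change 1.53). The count was 4 without PBS mouse 19 or 24, 5 without PBS mouse 22, 7 without LPS mouse 5 and 5 with only the 2 groups fitted. The receptor complex of LPS itself did not pass: Tlr4 changed by 0.91 ± 0.53 and Ly96 by 0.22 ± 0.52. Tlr2, the receptor of bacterial lipoproteins, was at 191, 223, 137, 614 and 53.0 CPM after LPS and 47.4, 12.8, 20.5 and 16.6 CPM after PBS (log2 fold change 3.33 ± 0.64, adjusted p = 0.0015). Tnfaip3, the feedback inhibitor A20, was at 78.6, 89.9, 60.4, 158 and 22.4 CPM against 14.8, 5.67, 3.58 and 0.289 CPM, and lost its call without PBS mouse 19, 22 or 24 (adjusted p from 0.071 to 0.081). Of 11 leukocyte adhesion genes 3 were higher, among them Icam1 at 972, 789, 646, 982 and 387 CPM against 158, 122, 113 and 124 CPM and Vcam1 at 1020, 844, 801, 957 and 358 CPM against 287, 160, 115 and 199 CPM. Both adhesion molecules were higher in every LPS library. Of 17 cytokines and growth factors 2 were called. Csf1, the macrophage growth factor, was at 210, 217, 90.6, 754 and 65.0 CPM against 67.4, 70.6, 55.9 and 51.9 CPM, a log2 fold change of 2.12 ± 0.45. LPS mouse 8 lay inside the control range for Csf1, and without LPS mouse 5 the log2 fold change was 1.24 (adjusted p = 0.022); with only the 2 groups fitted the call was lost (0.10). Il18, an inflammasome cytokine that epithelium also expresses, was at 46.0 and 213 CPM in LPS mice 3 and 8. It was at 0 to 3.00 CPM in the other LPS libraries, against 2.79 to 3.86 CPM after PBS. Il18 lost its call without any 1 PBS mouse or LPS mouse 3 or 8. Its log2 fold change was -1.17 without both mice 3 and 8 and -0.57 among mice 11 and above. In that last fit 1 of 18 tested genes of the list was called. Il6 and Il1b did not pass (adjusted p = 0.27 and 0.70). Of 25 receptor and SOCS genes, Il17ra (not without PBS mouse 19 or among mice 11 and above, adjusted p = 0.055) and Stat3 were called, and 4 were among mice 11 and above. Stat3, the transducer of IL-6 signals, was at 448, 367, 264, 428 and 295 CPM against 184, 175, 176 and 185 CPM.

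Metallothioneins and some glucocorticoid targets were higher. Of 18 genes of the metallothionein and redox list, 8 were higher and 1 lower, and of 20 glucocorticoid targets 8 were higher and 0 lower, the 2 lists sharing Mt1 and Mt2. The first list had 5 higher genes without any 1 PBS mouse or LPS mouse 3, 4 without mice 3 and 8, and 5 among mice 11 and above, where 11 of the 20 glucocorticoid targets were higher and 1 lower. Mt2, which binds zinc and copper, was at 5160, 5850, 2370, 5410 and 1720 CPM after LPS and 443, 42.0, 55.5 and 48.6 CPM after PBS (log2 fold change 4.80 ± 0.74, adjusted p = 0.00015). Mt1 was at 8110, 9790, 3850, 10000 and 3880 CPM against 950, 211, 322 and 273 CPM. PBS mouse 14 was the highest control for both. Fkbp5, a co-chaperone of the glucocorticoid receptor, was at 167, 192, 145, 153 and 47.1 CPM against 27.3, 17.9, 47.6 and 45.2 CPM, and LPS mouse 8 lay within the controls; the call was lost without PBS mouse 19 (adjusted p = 0.054). Pdk4, a kinase that inhibits the pyruvate dehydrogenase complex, rose by a log2 fold change of 3.66 ± 0.77. Sod3, the extracellular superoxide dismutase, was at 131, 156, 146, 37.7 and 56.6 CPM against 610, 760, 772 and 523 CPM and fell by 2.66 on the log2 scale. Nos2 and Slc7a11 of the redox list were called but lost the call among mice 11 and above (adjusted p = 0.53 and 0.10) and without any 1 PBS mouse or LPS mouse 3, Nos2 also without LPS mouse 8.

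The promoters of Mt1 and Mt2, neighbours on chromosome 8, are shown because both genes moved together. The metal response element core was searched as TGCACNC and TGCGCNC on both strands and occurred in 25.7% of the windows. It was in the windows of 6 of 14 matched genes of the metallothionein and redox list and of 2 of its 7 matched called members, Mt1 and Mt2. Capitals mark 3 matches in Mt1 (chr8:94178839-94179138, plus strand; the gene's annotated span begins within this window, at 94178883) and 4 in Mt2 (chr8:94172368-94172667, plus strand).
Mt1: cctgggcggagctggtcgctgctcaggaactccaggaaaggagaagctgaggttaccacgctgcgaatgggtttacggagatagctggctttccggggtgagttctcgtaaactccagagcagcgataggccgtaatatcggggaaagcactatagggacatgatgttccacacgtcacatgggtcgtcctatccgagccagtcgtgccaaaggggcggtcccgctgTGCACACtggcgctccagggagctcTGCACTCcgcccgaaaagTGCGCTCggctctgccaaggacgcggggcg
Mt2: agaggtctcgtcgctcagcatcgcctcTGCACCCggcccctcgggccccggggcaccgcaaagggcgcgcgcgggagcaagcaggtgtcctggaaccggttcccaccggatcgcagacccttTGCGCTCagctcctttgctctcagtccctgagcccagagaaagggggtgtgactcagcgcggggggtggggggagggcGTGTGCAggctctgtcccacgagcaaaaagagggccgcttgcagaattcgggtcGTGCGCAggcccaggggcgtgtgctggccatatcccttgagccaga

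Of 28 glial identity genes tested, 0 were higher and 3 lower, against 3.96% and 4.00% of all genes. The 3 included Fabp7 and Entpd2, and the median log2 fold change of the list was -0.65. Entpd2, the glial enzyme that breaks down extracellular ATP (chr2:25395874-25401323), was at 211, 247, 249, 157 and 158 CPM after LPS and 478, 619, 681 and 500 CPM after PBS. The groups did not overlap and the log2 fold change was -1.48 ± 0.33 (adjusted p = 0.0056). Fabp7, a fatty acid carrier of glial progenitors, was at 17.8, 17.1, 0, 24.8 and 1.06 CPM against 49.7, 65.8, 75.1 and 119 CPM. Fabp7 lost its call without mice 3 and 8 (adjusted p = 0.18) and without any 1 library other than LPS mouse 5, while Entpd2 kept its call in each of these fits. The list had 1 or 2 lower genes with any 1 library left out and 2 among mice 11 and above, where Fabp7 was not called (adjusted p = 0.11). Sox10 (log2 fold change 0.28 ± 0.79), S100b (-1.48 ± 0.66) and Gfap (1.18 ± 0.67) did not pass. Gfap was at 673, 1400, 617, 181 and 1690 CPM against 420, 249, 376 and 567 CPM, overlapping through LPS mouse 5. Pmp22, a myelin protein, was at 251, 264, 127, 502 and 142 CPM against 727, 757, 828 and 701 CPM and fell by 1.55 on the log2 scale, with an adjusted p of 0.0074 that rose to 0.078 without mice 3 and 8. Of 13 pan-reactive astrocyte genes 6 were higher (Lcn2, Timp1, Cxcl10, Cd44, Cp and Serpina3n) and Vim was lower. Timp1, an inhibitor of matrix proteases, was at 446, 443, 192, 385 and 213 CPM against 36.7, 34.8, 33.2 and 22.5 CPM. Vim, an intermediate filament that these genes include as a reactive marker, was at 699, 1060, 587, 492 and 569 CPM against 1950, 1720, 1490 and 1900 CPM and fell by 1.38 on the log2 scale (adjusted p = 0.0014). Of 11 neurotoxic-type genes 5 were higher and 1 lower, and of 12 protective-type genes 3 were higher and 1 lower; without PBS mouse 19 these lists had 3 and 1 higher.

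Some purinergic and lipid genes passed the test, where 3.96% of all genes were higher and 4.00% lower. P2ry1, an ATP and ADP receptor, was at 19.7, 21.1, 1.18, 4.09 and 8.87 CPM after LPS and 114, 160, 124 and 84.0 CPM after PBS; of 19 genes of the purinergic and gap junction list 0 were higher and 3 lower (P2ry1, P2ry14 and Entpd2). P2ry1 and P2ry14 lost their calls without mice 3 and 8 (adjusted p = 0.18 and 0.17) and without any 1 PBS mouse or LPS mouse 3, 5 or 8, which left 1 of the 19 lower; among mice 11 and above 2 were, without P2ry14 (adjusted p = 0.06). Of 16 genes of cholesterol efflux and lipid transport 1 was higher (Apod) and 2 lower (Scd2 and Fabp7), and none was called without PBS mouse 14 or 19. Apod, a lipid carrier, was at 3230, 3060, 991, 3900 and 581 CPM against 589, 450, 450 and 340 CPM, with LPS mouse 8 inside the control range and an adjusted p of 0.049 that rose to between 0.066 and 0.12 without any 1 library other than LPS mouse 3 or 8. Scd2, a desaturase, fell by 1.68 on the log2 scale and lost its call without mice 3 and 8 (adjusted p = 0.14), either of them, or PBS mouse 14 or 19.

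**Figure D3:**
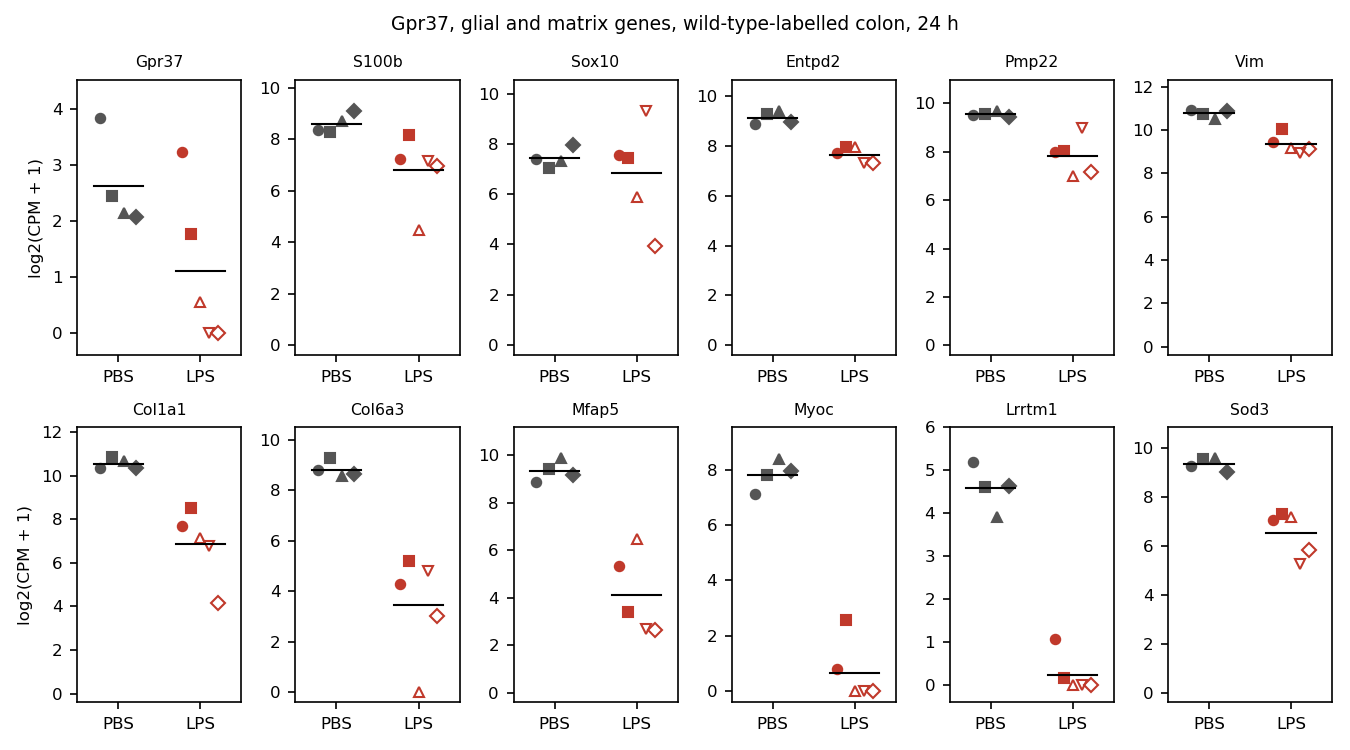
Level of Gpr37, glial and matrix genes as log2(CPM + 1) in each library (grey PBS, red LPS, open symbols for LPS mice 3, 5 and 8, bar at the group mean). Gpr37 and Sox10 overlapped between treatments, while S100b (not called), Entpd2, Pmp22, Vim, Col1a1, Col6a3, Mfap5, Myoc, Lrrtm1 and Sod3 were lower in every LPS library.

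Many collagen and matrix genes fell. Of 43 collagens and other matrix genes tested, 0 were higher and 22 lower, with a median log2 fold change of -2.25. Col1a1, a chain of type I collagen, was at 208, 364, 138, 108 and 16.7 CPM after LPS and 1290, 1820, 1640 and 1310 CPM after PBS (log2 fold change -3.18 ± 0.73, adjusted p = 0.0067). Col6a3, a chain of microfibrillar collagen, was at 18.6, 36.1, 0, 26.8 and 7.18 CPM against 438, 612, 380 and 398 CPM. The elastic fibre genes Mfap2 and Mfap5 fell by 3.78 and 4.49 on the log2 scale. Of the 12 genes with the largest falls, Itga11, a collagen receptor, was at most 0.364 CPM after LPS and between 26.1 and 68.6 CPM after PBS. Myoc, an extracellular glycoprotein, was at 0.728, 4.91, 0, 0 and 0 CPM against 138, 224, 334 and 243 CPM (log2 fold change -7.46 ± 1.60). Lrrtm1, a synaptic adhesion gene, was at 1.09, 0.12, 0, 0 and 0 CPM against 35.3, 23.3, 14.1 and 23.8 CPM (-6.99 ± 0.94, adjusted p = 2.6e-05). Rspo1, a Wnt agonist, had no counts after LPS and was at least 10.8-fold lower; Fam180a was at least 2.78-fold lower on the same floor. Fcrls, a gene of tissue macrophages, had 1 count after LPS and a ratio of 196 (95% counting interval 35.0 to 7760). Aqp7, Col8a2, AU021092, Adamtsl3 and Mrc2 were also among the 12, with log2 fold changes from -6.09 to -5.27. Without LPS mice 3 and 8, Fcrls, Fam180a, Aqp7, AU021092, Adamtsl3 and Mrc2 lost their calls (adjusted p from 0.078 to 0.15), and Rspo1, Itga11, Myoc, Lrrtm1 and Col8a2 kept theirs. Aqp7 also lost its call without PBS mouse 19, and AU021092 without any 1 library other than PBS mouse 22 or LPS mouse 13 (adjusted p from 0.054 to 0.069). Among mice 11 and above AU021092 and Col8a2 were not called (adjusted p = 0.07 and 0.064). Pmepa1, a target and inhibitor of TGF-beta signalling, was at 37.5, 44.5, 42.5, 52.3 and 13.7 CPM against 221, 173, 227 and 283 CPM, with a log2 fold change of -2.57 ± 0.46.

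Fibroblast markers moved with the matrix genes. Of 12 fibroblast markers 0 were higher and 7 lower, 4 of them also in the matrix list, and the list summed to 7980, 9660, 3360, 895 and 815 CPM after LPS and 19400, 27700, 25600 and 17800 CPM after PBS. The median log2 fold change of the 12 was -3.34, against -2.25 for the matrix list. None of the 12 was at 0 in every LPS library. The 2 with the smallest changes were Pdgfra and Dcn: Pdgfra was at 102, 160, 14.2, 0.91 and 6.75 CPM against 133 to 267 CPM, and Dcn at 5110, 5450, 2130, 153 and 462 CPM against 5570 to 9570 CPM. Neither of these 2 genes passed the test. The part of fibroblast RNA in the fall of matrix genes was not tested. Among mice 11 and above, 8 of the 12 fibroblast markers were lower (median log2 fold change -2.50), and of the 43 matrix genes 19 were lower and 1 higher (median -1.42). Without LPS mice 3 and 8, 11 of the 43 matrix genes and 4 of the 12 fibroblast markers were lower, and with only the 2 groups fitted 14 and 7 were. Of 14 smooth muscle markers 3 were lower (0 without PBS mouse 22, and 1 without PBS mouse 14 or 19 or LPS mouse 13, 3 or 5), and that list summed to 1020 to 4330 CPM after LPS and 1760 to 11000 CPM after PBS. Of 11 endothelial markers 1 was lower (Tek, not called without any 1 PBS mouse or LPS mouse 3, 5 or 8), and sums were 117 to 1550 CPM against 949 to 1400 CPM.

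**Figure D4:**
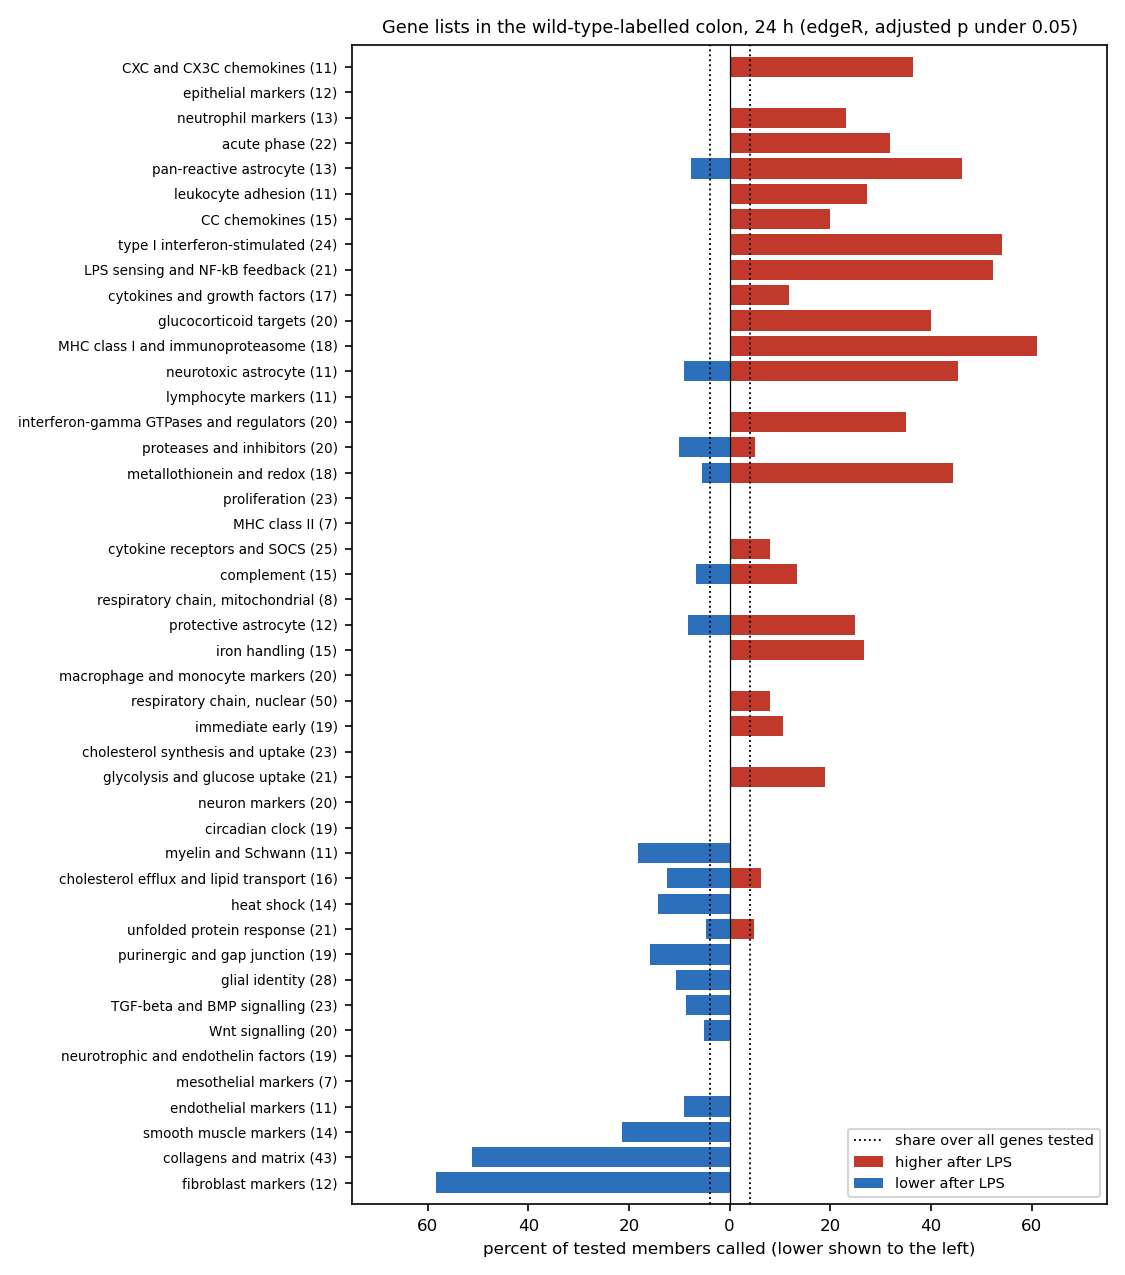
Percent of the tested members of each fixed list with at least 7 tested members that were called higher (red, right) or lower (blue, left) after LPS, with the number tested in brackets and dotted lines at the 3.96% and 4.00% of all genes. Lists run from the lowest median log2 fold change at the bottom (fibroblast markers) to the highest at the top (CXC and CX3C chemokines).

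Other lists are given beside the shares over all genes, 3.96% higher and 4.00% lower. Of 19 circadian clock genes, 23 cholesterol synthesis genes, 23 proliferation genes, 20 neuron markers and 19 neurotrophic and endothelin genes, 0 passed. At an unadjusted p under 0.05, 3695 of all 14903 genes passed. DESeq2 called 2255 of the 14903 at an adjusted p of 0.05. Of these lists it called 2 cholesterol synthesis, 4 proliferation, 5 clock and 2 neurotrophic genes and 0 neuron markers. Among mice 11 and above 3 clock genes and 1 proliferation gene were higher and 1 cholesterol synthesis gene was lower. Without LPS mouse 5, 3 cholesterol synthesis genes were higher, and without LPS mouse 8, 2 were lower. Of 21 genes of the unfolded protein response 1 was higher (Atf4) and 1 lower (Pdia6), and of 14 heat shock genes 2 were lower (Hsph1 and Dnaja1). Atf4 lost its call without any 1 PBS mouse or LPS mouse 13 or 5, Hsph1 without PBS mouse 14 or 24 or LPS mouse 8, and Dnaja1 without PBS mouse 14 or among mice 11 and above (adjusted p = 0.095), where 3 genes of the unfolded protein response and 1 heat shock gene were lower. Of 21 glycolysis genes 4 were higher, but Hk2, which starts glycolysis, was at 94.6 and 109 CPM in LPS mice 3 and 8, 4.31 to 8.41 CPM in the other LPS libraries and 2.5 to 4.12 CPM after PBS. Hk2 lost its call without PBS mouse 19, 22 or 24 or LPS mouse 8 and among mice 11 and above (adjusted p = 0.705), where 1 glycolysis gene and 1 of the 50 nuclear respiratory chain genes were higher. Without LPS mice 3 and 8, 1 of the 21 was higher, and the nuclear respiratory chain list went from 4 to 0 of 50. With 1 library left out, the glycolysis count ran from 0 (PBS mouse 24) to 9 (LPS mouse 5) and the respiratory chain count from 2 (PBS mouse 14, 19 or 22 or LPS mouse 8) to 15 (LPS mouse 5). The epithelial sums of the same 2 libraries are given above, and their part in these calls was not tested. The mitochondrial share of counts was 9.25% ± 3.53 after LPS (SD, n = 5) and 5.93% ± 3.23 after PBS (SD, n = 4), a difference of 3.33 percentage points that did not pass an exact two-sided permutation test (p = 0.183, smallest possible 0.0159). It was 0.164 percentage points among mice 11 and above.

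The same treatment was measured in the wild-type-labelled small intestine and the knockout colon, in the same fit. In the small intestine 1069 genes (7.17%) passed between LPS and PBS, and in the knockout colon 107 (0.718%) did. Of the colon's 1186 genes, 492 were also called in the small intestine, all in the same direction, which is 41.5% of the colon list and 46% of the small intestine list; 4 mice of each treatment gave both regions. With the knockout colon 73 were shared, 6.16% and 68.2% of the lists. The test of the difference between responses called 0 of 14903 genes (0%) against the small intestine and 0 (0%) against the knockout colon. At an unadjusted p under 0.05 there were 1126 and 2009 genes, and DESeq2 called 121 and 340. The fit did not pair the regions by mouse. With mouse as a random effect, limma-voom also called 0 against the small intestine. Among mice 11 and above, edgeR called 7 against the small intestine and 25 against the knockout colon. In the fit of all libraries the wild-type-labelled colon held LPS mice 3, 5 and 8, with at most 2 Gpr37 counts each. The 0 against the knockout colon therefore does not show whether Gpr37 changed the response. Ccl2 changed by 5.44 ± 0.90 in the wild-type-labelled colon, 6.00 ± 0.78 in the small intestine and 3.86 ± 0.77 in the knockout colon. Irf7 changed by 3.35 ± 0.39, 3.86 ± 0.34 and 3.40 ± 0.36. Lcn2 changed by 3.88 ± 1.05 in the wild-type-labelled colon and 9.00 ± 1.12 in the small intestine, a difference of -5.12 ± 1.28 that did not pass (adjusted p = 0.38). Lrrtm1 changed by -6.99 ± 0.94, -1.84 ± 0.67 and -1.08 ± 0.67, and its difference from the knockout colon was -5.92 ± 1.14 (adjusted p = 0.12).

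**Figure D5:**
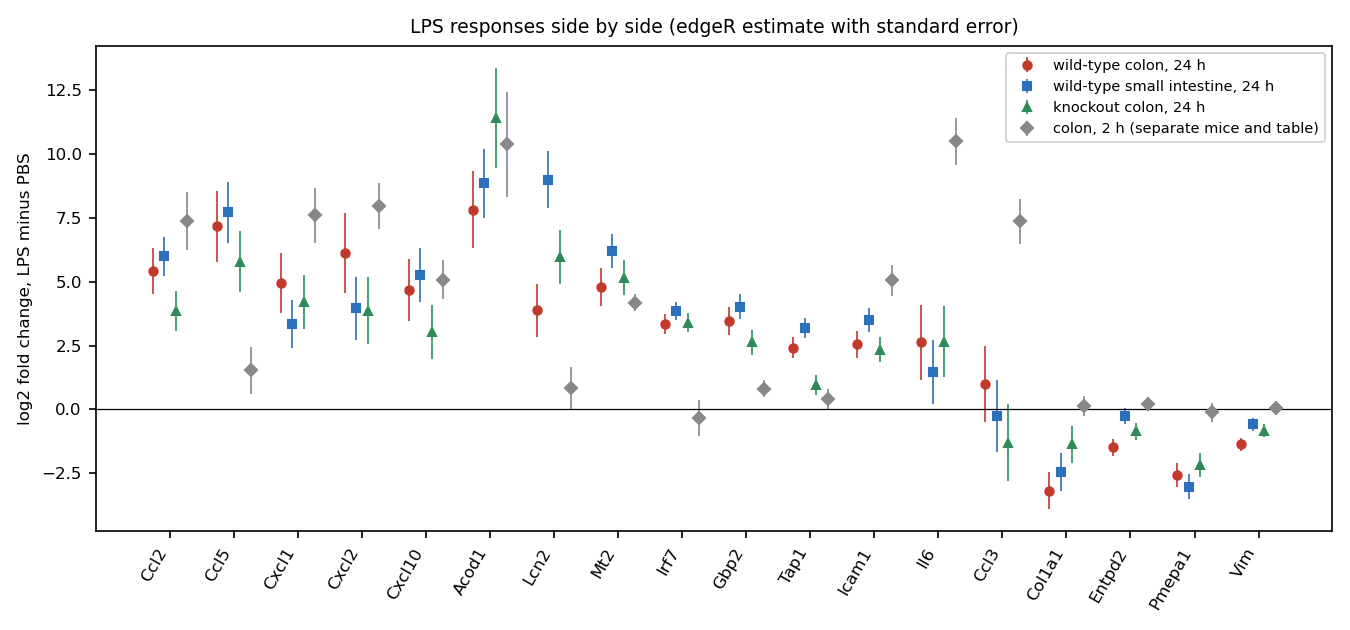
Log2 fold change of LPS against PBS with its standard error (edgeR) for 18 genes in the wild-type-labelled colon, wild-type-labelled small intestine and knockout colon at 24 h and in the colon at 2 h. Il6 and Ccl3 had large changes at 2 h (10.50 and 7.37) and smaller ones in the wild-type-labelled colon at 24 h (2.64 and 0.99), while Irf7 and Lcn2 had larger changes at 24 h (3.35 and 3.88) than at 2 h (-0.33 and 0.85).

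An earlier time was measured in other mice, carrying the reporter alone, with 8 colon libraries at 2 h in a table fitted separately, so times were not tested against each other. At 2 h, 102 of 13107 genes (0.778%) were called, 97 of them higher. The 24 h calls included 43 of these 102 genes, each higher at both times, which is 42.2% of the early list and 3.85% of the late list among genes tested at both times. The shared genes included the chemokines Ccl2, Cxcl1, Cxcl2, Cxcl5 and Cxcl10, the metallothioneins, Icam1, Tlr2, Tnfaip3 and Nfkbia. Il6, a cytokine that drives acute phase genes, changed by 10.50 ± 0.91 at 2 h (adjusted p = 1.4e-05) and by 2.64 ± 1.47 at 24 h. Ccl3, a macrophage chemokine, changed by 7.37 at 2 h and 0.99 ± 1.49 at 24 h. Irf7 changed by -0.33 at 2 h, Gbp2 by 0.82, Tap1 by 0.41, Lcn2 by 0.85 and Serpina3n by 0.42, and none of these 5 was called at that time. Col1a1, Vim and Entpd2 changed by 0.13, 0.04 and 0.20 at 2 h and were not called.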

How the data were processed

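RNA was amplified with Smart-seq2, per the labels' protocols; as generally run, it keeps neither strand nor molecular identifiers. The authors deposited whole-number read counts per gene symbol for 37 libraries at 24 h and a second table that holds the 2 h libraries. The submitters' processing notes name Trim Galore 0.4.4, STAR 2.5.3, DESeq2 and GRCm38; the counting tool and annotation are not given in the sources used here. Without strand, overlapping and antisense genes cannot be told apart.

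Groups came from the labels. Counts were filtered (filterByExpr), TMM-normalised and tested with edgeR 4.0.16 (R 4.3.3) by the quasi-likelihood test in 1 fit of all 8 groups at 24 h, with Benjamini-Hochberg adjustment over 14903 genes and a threshold of 0.05. CPM are counts divided by the TMM-scaled library total and set to the usual common size, and SE is the log2 fold change divided by the root of F. Intervals and floors of 3 counts cover counting error only. DESeq2 1.42.0, limma 3.58.1, other normalisation, filters, covariates and left-out libraries were alternatives. The scripts were tested on simulated data. No 2 libraries of a group had counts within sampling noise of each other. The fit pools the spread over all 8 groups. Where nothing says that libraries came from separate preparations, p-values measure the spread between mice within those groups. They do not measure that of the wild-type-labelled colon alone.

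Named genes were the 12 called genes with the largest change in each direction whose groups did not overlap and whose mean log2 CPM reached 3 (predicted genes, date-like symbols and antigen receptor segments left out), up to 4 called members per direction and the first 2 members of each of 50 lists, and Gpr37; others were chosen after their values were seen, and some named by this rule are not reported here. The comparison and the lists were chosen with earlier results of these data known. Gene positions and promoters are from RefSeq GRCm38.p6, in which all 63 genes looked up were matched.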

Additional observations from a re-analysis of the deposited data

Results flagged for a closer look

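Within each group, the values reported per library and the mitochondrial share and total counts were checked for a single library far from the others by Dixon's criterion. Of 129 groups of values, 29 held one; chance flags about 1 in 20. PBS mouse 14 held 14 of the 29. It was the highest control for Gpr37 (13.3 CPM), Ccl5 (33.8), Ccl2 (105), Acod1 (3.03), Cxcl1 (63.1), Cxcl5 (24.4), Lcn2 (1170), Serpina3n (256), Saa3 (1440), Ptx3 (71.5), Cfb (141), Mt2 (443) and Mt1 (950), all in CPM, and the lowest for Il18 (2.79 CPM).

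PBS mouse 19 stood apart for the pancreatic elastase gene Cela2a (17500 CPM), PBS mouse 24 for Epcam (75.2 CPM) and PBS mouse 22 for its total of 28234203 counts and for single counts of Ly6g and Ccr7 (0.0351 CPM each). In the LPS group, mouse 13 was apart for Gpr37 (8.37 CPM), Lrrtm1 (1.09 CPM) and Il6 (33.5 CPM), and mouse 16 for Myoc (4.91 CPM). Mouse 3 was apart for Ccr7 (535 CPM), mouse 5 for Sox10 (633 CPM), Cxcl5 (2090 CPM) and Csf1 (754 CPM), and mouse 8 for Cxcl10 (1360 CPM) and Il18 (213 CPM).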

How the results depend on the processing

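The 1186 calls became 2255 with DESeq2, 412 (of fewer genes and libraries) when only the 2 groups were fitted and 679 without LPS mice 3 and 8, an alternative chosen after the data were seen; the cause was not tested. Leaving out 1 library gave 551 to 1324. The difference from the small intestine response, 0 calls, gave 121 with DESeq2, 7 among mice 11 and above, 1 with only the groups compared and 0 to 1 with 1 library left out. The difference from the knockout response, 0 calls, gave 340 with DESeq2, 25 among mice 11 and above, 1 with the mouse number division as a covariate and 0 to 5 with 1 library left out. At 2 h, 102 calls became 277 with DESeq2, 63 with only the groups compared and 65 to 108 with 1 library left out. The mitochondrial difference ranged from 2.10 to 4.83 percentage points with 1 library left out and never passed. With the replicate block the counts were 945 for the wild-type-labelled colon, 0 for both differences and 88 at 2 h; the labels do not pair mice across groups by number, and same-numbered libraries' deviations correlated between -0.128 and 0.016 over 4 pairs.

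Of the 24 genes with the largest changes, 10 stayed called in each alternative that gave them a value and with each library left out; 1 of these, Rspo1, had no value with only the 2 groups fitted. Il18 reversed, at -0.57 among mice 11 and above and -1.17 without LPS mice 3 and 8. The sign of Ly6g also turned (-1.21 and -1.03), but these values rest on 1 PBS count, the only count left in either group. Of 121 called genes named by the rule, 72 kept their call without mice 3 and 8 and 92 among mice 11 and above. Lower depth in the LPS libraries limits what can be said of genes near 1 CPM.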

Other observations

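Gene groups outside the fixed lists were put together after their values were seen, so their counts are descriptions. Of 39 proteasome subunits (Psma, Psmb, Psmc and Psmd genes), 16 were higher after LPS and 0 lower, and 15 of 39 were higher among mice 11 and above, 7 of 39 without LPS mice 3 and 8 and 8 of 38 with only the 2 groups fitted. Psma6, a core subunit, was at 582, 429, 610, 452 and 740 CPM after LPS and 229, 208, 259 and 261 CPM after PBS, with no overlap and a log2 fold change of 1.23 ± 0.22. Of 79 cytosolic ribosomal protein genes 16 were higher and 0 lower, and their sum was highest in LPS mice 3 and 8 (53900 and 64800 CPM) and lowest of the LPS group in mouse 5 (26600 CPM), against 24300 to 35900 CPM after PBS. The count was 0 without PBS mouse 19, without LPS mice 3 and 8 and with only the 2 groups fitted, 1 without PBS mouse 14 or LPS mouse 8, 2 without LPS mouse 3, 6 among mice 11 and above, 4 without PBS mouse 22, 3 without PBS mouse 24 and 39 without LPS mouse 5.

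Of 24 enzymes and chaperones that fold and process collagen, 0 were higher and 9 lower, also 9 among mice 11 and above, with 6 without LPS mice 3 and 8 and 5 with only the 2 groups fitted. Serpinh1, the collagen chaperone, was at 52.8, 40.3, 15.8, 48.7 and 17.9 CPM after LPS and 359, 361, 299 and 314 CPM after PBS, a log2 fold change of -3.25 ± 0.54. Of 5 genes of the nitric oxide receptor pathway, 4 were lower, but 2 among mice 11 and above, 1 without LPS mice 3 and 8, 0 of 4 with only the 2 groups fitted, and 2 without PBS mouse 14 or 24 or LPS mouse 13, 3 or 8. Gucy1b1, a subunit of soluble guanylate cyclase, was at 7.64, 22.2, 0, 2.73 and 14.1 CPM against 115, 125, 94.3 and 116 CPM.

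Of 18 pancreatic acinar enzymes 7 were called lower. Their sum was 71300 CPM in PBS mouse 19 and 19.8 to 240 CPM in the other 8 libraries, with Cela2a at 17500 CPM there and at most 3.18 CPM elsewhere. Without PBS mouse 19, 0 of the 18 were called, as was the case without LPS mouse 3 or 8; 1 was called without LPS mouse 13 or 16 and 2 without LPS mouse 5.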
